A study of Mus musculus with 27 samples.

Results

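Transcript levels were compared between livers with and without daily oral 4-methylumbelliferone (4MU, also sold as hymecromone) in the absence of fibrosis, in 7 livers without CCl4 from a series of 27 livers in 8 groups. The 4MU group held 3 mice and the control group 4 mice, chosen by the group names of their columns in the count table, and every gene with a mean of at least 10 counts over the 27 libraries was tested, which left 14114 of 55414 genes. All 7 were female Balb/c mice, bought at 8 weeks of age, that received olive oil intraperitoneally, the vehicle in which the fibrotic groups received CCl4. The 4MU mice were gavaged every day at 600 mg/kg of 4MU in carboxymethyl cellulose. The labels give the control mice tail vein injections of PBS and name no gavage, whereas the study's methods describe a gavage of the control mice with the vehicle, so 4MU and the route of handling cannot be told apart. Further mice were used for comparison. One set was 3 siHAS2-LNP and 3 siLuc-LNP mice without CCl4, given lipid nanoparticles with siRNA against Has2 or luciferase by tail vein, and another was the CCl4 group of 2 mice and the CCl4 + 4MU group of 4 mice. RNA came from whole liver homogenate, so a lower level of a cell type's genes can stand for fewer cells or for less RNA per cell, and these cannot be told apart.

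4MU is used to lower hyaluronan, the large sugar polymer of the extracellular matrix that the hyaluronan synthases Has1, Has2 and Has3 build from UDP-glucuronic acid and UDP-N-acetylglucosamine. Liver UDP-glucuronosyltransferases (UGTs) attach glucuronic acid to 4MU, so the drug competes for the first of these precursors. In the liver, hyaluronan is made mainly by stellate cells and taken up from blood by sinusoidal endothelium.

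The 7 libraries held 18421673 to 27356934 counts. Levels below are CPM, the counts of a gene relative to its library total, scaled here by TMM (a correction for library composition), and on this scale a limit of 3 counts lies at 0.117 to 0.177 CPM. Spearman correlations between libraries were 0.981 to 0.987 within the control group, 0.979 to 0.985 within the 4MU group and 0.975 to 0.986 between the groups, so the groups did not separate over all genes. All 7 carried the liver's defining transcripts, with albumin (Alb) at 101067 to 172725 CPM. The 24 hepatocyte markers summed to 238100 to 268300 CPM in control and 191300 to 221800 CPM in 4MU mice, without overlap. Alb is a large part of these sums. Of the 24 markers 17 were lower (median log2 fold change -0.12), with 0 at an unadjusted p under 0.05. In 2 (8.33%) the 4MU mice lay below all controls, as did 4.28% of all tested genes. Of 20 pancreas acinar genes 1 passed the low-count filter, and of 12 gut and muscle genes 2 did. A few mice stood apart on groups of genes. Control mouse 2 was the highest of the 7 for interferon-inducible genes, 4MU mouse 1 was the lowest for immune cell genes, and 4MU mouse 3 was the highest for antioxidant and conjugation genes.

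The number of genes called between 4MU and control livers depended on the tool. With 3 and 4 mice, few calls do not show that the groups were alike. By the quasi-likelihood test of edgeR (threshold of 0.05 after Benjamini-Hochberg adjustment), 1 of 14114 genes was higher (0.00709%) and 0 were lower. At an unadjusted p under 0.05, 444 genes (3.15%) were higher and 522 (3.7%) lower. DESeq2, the tool used in the study, called 12 of 12184 genes higher (0.0985%) and 39 lower (0.32%). In 46 of these 51 the 4MU mice did not overlap the control mice. Of all tested genes, 3.47% lay above and 4.28% below all controls. The 51 were called on these same mice, so their lack of overlap is not separate support. Of its 39 lower genes, 14 were on a list of 43 interferon-stimulated genes. These DESeq2 calls moved with single mice. The 14 became 1 without control mouse 2, without 4MU mouse 1 or without 4MU mouse 3, 6 without control mouse 1 or 4MU mouse 2, 7 without control mouse 3, 13 without control mouse 4, and 11 in a fit of the 7 mice alone. The number of all calls was 21 without control mouse 2, 26 without 4MU mouse 1, 29 without control mouse 1, 85 without 4MU mouse 2 and 10 without 4MU mouse 3. Calls by edgeR and by DESeq2 are therefore named by tool below, and genes that passed neither are given by their values.

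**Figure D1:**
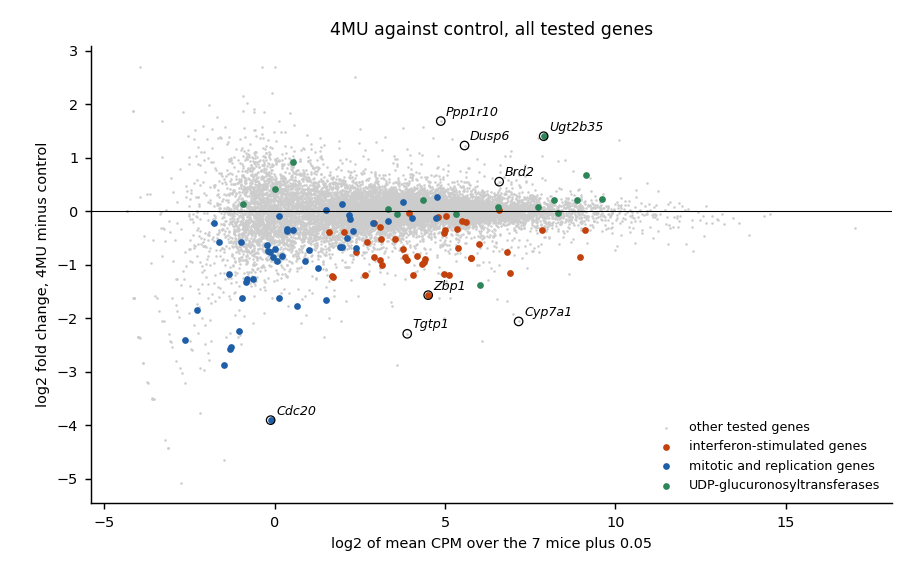
Log2 of the mean CPM over the 7 mice plus 0.05 (horizontal) against the log2 fold change, 4MU minus control (vertical), 1 point for each tested gene, with 3 gene lists in colour and 8 genes named. Most points lie around 0, and the interferon-stimulated genes lie below it in 42 of 43 cases.

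The gene that edgeR called higher was Ppp1r10, which encodes PNUTS, a nuclear subunit that targets protein phosphatase 1 to chromatin and to RNA polymerase II. It lies on chromosome 17 from 36227326 to 36243441 on the plus strand (GRCm39). Ppp1r10 stood at 12.7, 9.03, 11.8 and 26.5 CPM in the control mice and at 50.3, 54.6 and 40.0 CPM in the 4MU mice. Every 4MU mouse was above every control mouse, and control mouse 4 lay closest. The log2 fold change was 1.68 (standard error 0.278, 95% interval 1.11 to 2.25, edgeR adjusted p = 0.0379, DESeq2 adjusted p = 7.38e-05). The edgeR call was lost without any one of 6 of the 7 mice, with log2 fold changes between 1.5 and 1.8 and adjusted p of 0.0624 to 0.198, and was kept without control mouse 4 (2.1, adjusted p = 0.000218). It was also lost in an edgeR fit of the 7 mice alone (adjusted p = 0.364) and with libraries scaled by total counts (adjusted p = 0.0828). The siHAS2-LNP mice without CCl4 had 52.1, 46.9 and 35.7 CPM, within the range of or close to the 4MU mice, and the siLuc-LNP mice had 13.5, 13.05 and 15.9 CPM, within the range of the controls. With CCl4, the 2 CCl4 mice had 24.6 and 23.3 CPM and the log2 fold change of CCl4 + 4MU against CCl4 was 0.01. Mrps18b, a mitochondrial ribosomal protein gene on the opposite strand that overlaps Ppp1r10, had a log2 fold change of -0.09, and the strand setting of the counting is not stated.

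After Ppp1r10, the lowest p-values among higher genes belonged to Brd2, Kmt2d, Dusp6 and Spen, none of which passed edgeR's test and all of which passed that of DESeq2. Brd2, a bromodomain reader of acetylated histones, stood at 74.0 to 85.5 CPM in control and 108 to 128 CPM in 4MU mice (log2 fold change 0.55, standard error 0.109, edgeR adjusted p = 0.164). Kmt2d, which methylates histone H3 at enhancers, stood at 35.9 to 39.5 and 51.1 to 75.2 CPM (0.72, standard error 0.148, edgeR adjusted p = 0.164). Spen, a large nuclear corepressor, stood at 12.1 to 17.6 and 23.4 to 32.3 CPM (log2 fold change 0.87, 95% interval 0.47 to 1.28). Dusp6, the phosphatase that switches off the MAP kinase ERK and is itself induced by ERK signalling, was 20.1, 34.7, 32.3 and 33.7 CPM in control and 60.3, 67.0 and 84.5 CPM in 4MU mice (1.23, standard error 0.257, edgeR adjusted p = 0.164). Jun, an immediate early transcription factor chosen here after its values were seen, was 5.37 to 6.21 CPM in control and 8.04, 10.7 and 19.3 CPM in 4MU mice (log2 fold change 1.14, and 0.71 without 4MU mouse 3). In these 5 genes the 4MU mice lay above all controls, which 490 of all tested genes did (3.47%). Of 22 immediate early genes, 17 were higher, 3 of them at an unadjusted p under 0.05, and 4 did not overlap. The list leaned on 4MU mouse 3. Without that mouse 9 of 22 were lower, and the median log2 fold change was 0.145 in place of 0.365. At an unadjusted p under 0.05, 3 were then lower and 2 higher. Of all 14114 tested genes, 430 were then lower and 361 higher at that p. Fos was 0.736 to 2.24 CPM in control and 0.205 to 2.34 CPM in 4MU mice.

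Among the gene lists, the interferon-stimulated genes held the most members whose mice did not overlap, and these were lower in 4MU mice. Interferons are cytokines that switch on antiviral effectors at a DNA element called the interferon-stimulated response element (ISRE), and interferon-gamma acts at the gamma-activated site (GAS). A healthy liver transcribes many of these genes at a low resting level. Of 43 tested list members, 42 were lower, 27 of them at an unadjusted p under 0.05, as were 3.7% of all tested genes. DESeq2 called 14 lower (1 to 13 with a mouse left out) and edgeR 0 after adjustment. In 26 of the 43 (60.5%) all 3 4MU mice lay below all 4 control mice, as did 604 of all tested genes (4.28%). The median log2 fold change was -0.76, against -0.00197 over all tested genes. Summed over the list, the control mice had 2601, 3907, 2488 and 2268 CPM and the 4MU mice 1734, 1982 and 1888 CPM, so the groups did not overlap and control mouse 2 was the highest.

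**Figure D2:**
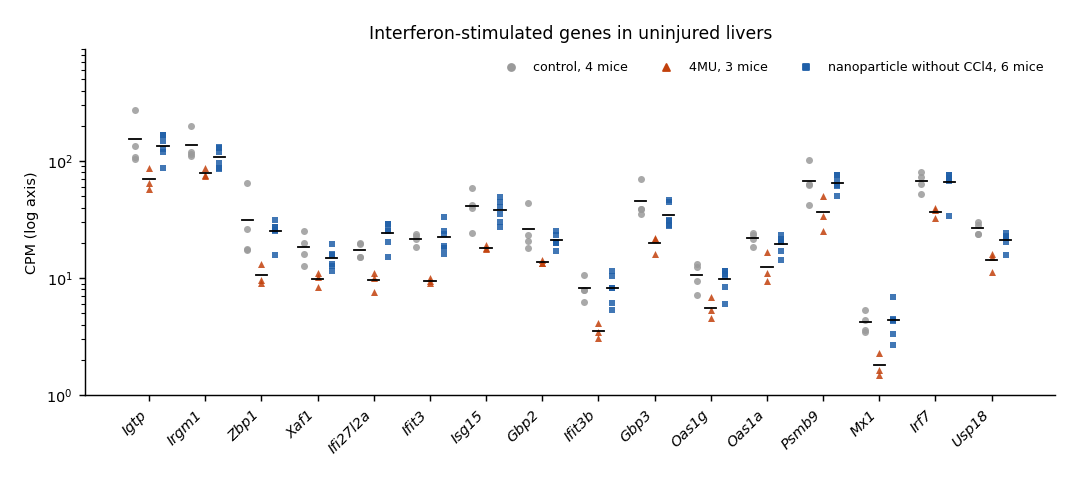
CPM on a log axis of 16 interferon-stimulated genes with the lowest p, in 4 control, 3 4MU and 6 nanoparticle mice without CCl4, 1 point a mouse, with a short line at each group's mean. In Ifit3 the control mice sit between 18.6 and 23.9 CPM and the 4MU mice between 9.12 and 10.03 CPM, and 1 control mouse is the high point in Igtp and Zbp1.

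Among the antiviral effectors, Ifit3, which belongs to a family that binds foreign RNA, was 23.9, 23.1, 18.6 and 21.4 CPM in control and 9.12, 9.49 and 10.03 CPM in 4MU mice (log2 fold change -1.19, standard error 0.295, edgeR adjusted p = 0.230, DESeq2 adjusted p = 0.0260). Isg15, a ubiquitin-like protein, was 39.7, 59.3, 42.02 and 24.2 CPM in control and 17.9, 19.1 and 17.7 CPM in 4MU mice (-1.18, edgeR adjusted p = 0.230). In both genes the 4MU mice formed a narrow band under every control. Mx1, a dynamin-like antiviral GTPase, was 3.48 to 5.31 CPM in control and 1.48 to 2.28 CPM in 4MU mice, and Oas1a, a sensor of double-stranded RNA, 18.6 to 24.5 and 9.37 to 16.6 CPM. Rsad2, which makes a chain-terminating nucleotide, was 9.39 to 13.6 CPM in control and 3.33 to 8.002 CPM in 4MU mice. Irf7, the transcription factor that amplifies type I interferon, was 52.5 to 81.1 and 32.4 to 39.7 CPM, and Usp18, which removes Isg15 from proteins, 23.9 to 30.1 and 11.3 to 16.2 CPM. Each of these genes separated the groups.

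Genes that interferon-gamma also induces were lower too, and several of them leaned on control mouse 2. Igtp and Tgtp1 are immunity-related GTPases that attack the vacuoles of intracellular parasites. Igtp was 135, 274, 109 and 103 CPM in control and 64.5, 87.6 and 57.3 CPM in 4MU mice (log2 fold change -1.15, edgeR adjusted p = 0.180). Without control mouse 2 its log2 fold change was -0.73 and the groups still did not overlap. Tgtp1 was 15.8, 52.4, 9.87 and 11.7 CPM in control and 4.30, 5.39 and 3.90 CPM in 4MU mice (-2.29, and -1.45 without control mouse 2). Zbp1, a sensor of Z-form nucleic acids, was 26.1, 65.5, 17.8 and 17.3 CPM in control and 9.58, 13.1 and 9.12 CPM in 4MU mice (-1.57, and -0.95 without control mouse 2). Gbp2 and Gbp3, guanylate-binding proteins, were 17.9 to 43.7 and 35.1 to 70.1 CPM in control and 13.4 to 14.3 and 16.2 to 21.8 CPM in 4MU mice. Tap1, the peptide transporter of antigen presentation, was 43.6 to 85.6 CPM in control and 28.6 to 39.2 CPM in 4MU mice (-0.85, standard error 0.178, edgeR adjusted p = 0.164). It overlaps Psmb9, an immunoproteasome subunit with a log2 fold change of -0.88, on the opposite strand, so without strand their reads cannot be told apart. Il18bp, the secreted inhibitor of interleukin 18, was 17.2 to 35.7 CPM in control and 7.84 to 13.6 CPM in 4MU mice (-1.14, and -0.84 without control mouse 2). Themis2, a signalling adaptor of myeloid and B cells, was 6.73 to 10.6 and 2.72 to 3.98 CPM (-1.19). Its highest control was mouse 1, and without control mouse 2 its log2 fold change was -1.255. Tgtp1, Tap1, Il18bp and Themis2 are not on the interferon list and were named for their low p-values.

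Other members of the interferon list had values near 0. Stat2 was 82.4 to 113 CPM in control and 86.9 to 104 CPM in 4MU mice (log2 fold change 0.02, 95% interval -0.24 to 0.28), and the cytosolic RNA sensors Rigi and Eif2ak2 had log2 fold changes of -0.10 and -0.12. Mx2 was 10.6 to 19.6 and 10.7 to 19.95 CPM (-0.04), and Irf9, a DNA-binding factor of the interferon response, had a log2 fold change of -0.20. Left out in turn, single mice moved the count of genes without overlap between 26 and 33 of 43 and the median between -0.82 and -0.58, the latter without control mouse 2. With fewer mice more genes separate the groups, and the share of all tested genes below the controls was then 6.04% to 8.67%. With libraries scaled by total counts 21 of 43 did not overlap, against 2.27% of all tested genes.

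The promoters of these genes are shown because the list is defined by how they are switched on. Bases 150 to 1 before the RefSeq start (GRCm38.p6, since the sequence table uses that build) are printed 5′ to 3′ in the direction of transcription, with capitals for every match on either strand to the ISRE letters GAAA, any 2 bases and GAAA. The first 4 belong to antiviral effectors and the last 2 to genes that interferon-gamma also induces. Each printed window holds a match, whereas the windows of Irf7 and Tap1, which are not printed, held 0 matches to these letters.
Ifit3, chr19:34583379-34583528, plus strand: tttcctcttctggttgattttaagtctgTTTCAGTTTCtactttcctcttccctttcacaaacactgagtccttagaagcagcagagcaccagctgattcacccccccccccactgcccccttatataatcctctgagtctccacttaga
Isg15, chr4:156200819-156200968, minus strand: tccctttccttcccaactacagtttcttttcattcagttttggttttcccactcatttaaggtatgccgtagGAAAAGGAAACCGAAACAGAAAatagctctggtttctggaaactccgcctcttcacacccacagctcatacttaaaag
Ifit1, chr19:34640739-34640888, plus strand: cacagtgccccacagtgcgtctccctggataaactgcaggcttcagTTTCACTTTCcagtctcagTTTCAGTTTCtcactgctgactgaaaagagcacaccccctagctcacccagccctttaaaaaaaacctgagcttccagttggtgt
Rsad2, chr12:26456453-26456602, minus strand: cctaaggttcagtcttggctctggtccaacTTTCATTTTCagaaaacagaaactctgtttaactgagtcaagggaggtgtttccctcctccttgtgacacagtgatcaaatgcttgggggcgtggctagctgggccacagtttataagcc
Gbp2, chr3:142620513-142620662, plus strand: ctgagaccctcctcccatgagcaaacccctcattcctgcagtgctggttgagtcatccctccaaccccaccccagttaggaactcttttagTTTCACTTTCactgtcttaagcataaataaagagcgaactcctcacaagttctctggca
Igtp, chr11:58199406-58199555, plus strand: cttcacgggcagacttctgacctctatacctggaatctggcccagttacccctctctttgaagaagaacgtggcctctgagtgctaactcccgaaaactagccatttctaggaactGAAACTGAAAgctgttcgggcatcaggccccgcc
In Isg15 the capitals hold 3 overlapping matches, and in Ifit1 there are 2 separate ones. The table gave a window for 29 of the 43 genes. Over the 250 bases before the start, 16 of these 29 (55.2%) held a match, against 3.46% of 27025 RefSeq promoters, and 12 of 20 genes (60.0%) whose mice did not overlap held one against 4 of 9 others (44.4%). The GAS letters TTC, any 3 bases and GAA were in 6 of 29 (20.7%), against 8.13% of all promoters. These shares describe the list, whose members were collected for this form of regulation.

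Genes of the cell division cycle were also lower, from a level that was already low in the control livers. Adult hepatocytes rarely divide. Of 47 mitotic and replication genes, 43 were lower, 11 at an unadjusted p under 0.05, 2 by DESeq2 and 0 by edgeR after adjustment, with a median log2 fold change of -0.71. In 12 (25.5%) the 4MU mice lay below all controls, as did 4.28% of all tested genes. At an unadjusted p under 0.05, 3.7% of all tested genes were lower. Mki67, which coats mitotic chromosomes and marks cycling cells, was 4.43, 2.36, 5.81 and 3.27 CPM in control and 0.922, 1.87 and 0.912 CPM in 4MU mice (-1.65, edgeR adjusted p = 0.361, DESeq2 adjusted p = 0.0368). Cdc20, which activates the anaphase-promoting complex, had 57, 8, 24 and 35 counts in control and 1, 3 and 2 counts in 4MU mice. The ratio of its summed scaled counts, 4MU to control, was 0.063 (95% exact binomial interval 0.0227 to 0.141, for counting error only). Top2a, the topoisomerase that untangles replicated DNA, was 1.88 to 2.56 CPM in control and 0.102, 1.09 and 0.658 CPM in 4MU mice, and Aurkb, a mitotic kinase, 0.491 to 0.865 and 0, 0.312 and 0.0506 CPM. The list summed to 161 to 204 CPM in control and 149 to 155 CPM in 4MU mice. Without control mouse 1, the highest of the 7 for the list, the median was -0.42, 6 genes in place of 11 were lower at an unadjusted p under 0.05, and 14 genes did not overlap, as did 6.86% of all tested genes. Of the 39 list members with a promoter window, 13 (33.3%) held the letters TTTGAA of the cell cycle homology region, against 18.3% of all RefSeq promoters.

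**Figure D3:**
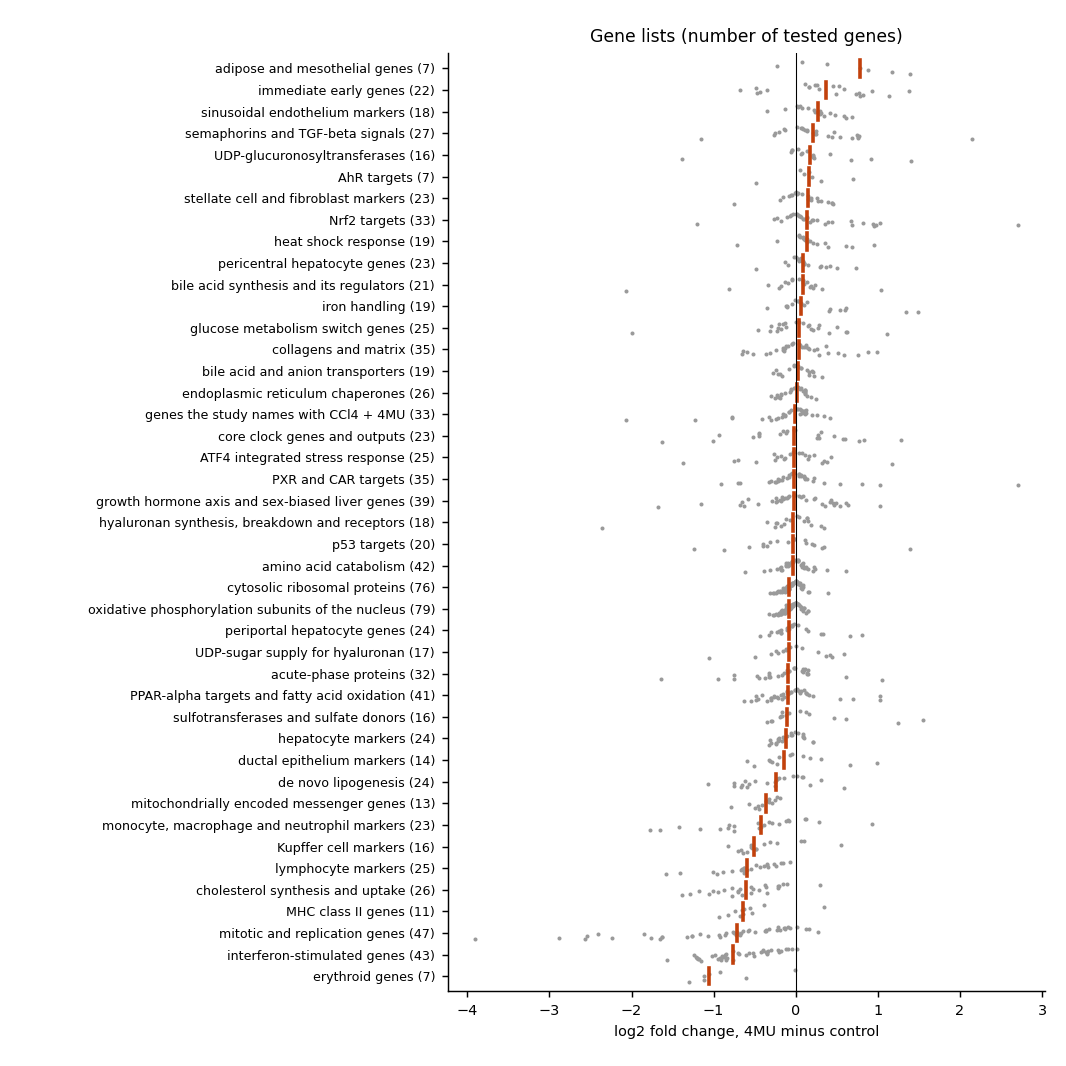
Log2 fold change, 4MU minus control, of every tested gene of each list with at least 7 tested genes (grey points), with the median as a red line. The erythroid, interferon-stimulated and mitotic lists have the lowest medians, at -1.06, -0.76 and -0.71.

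Genes of blood and immune cells tended to lower values in the 4MU livers, and the mice differed among themselves. Of all tested genes, 3.7% were lower at an unadjusted p under 0.05 and 4.28% lay below all controls. All 25 tested lymphocyte markers were lower, 9 at an unadjusted p under 0.05, and in 7 (28%) the mice did not overlap. The list summed to 101 to 114 CPM in control mice and to 58.3, 81.0 and 80.5 CPM in 4MU mice. Cd79a, part of the B cell receptor, was 1.36 to 1.84 CPM in control and 0.608 to 0.976 CPM in 4MU mice, while Cd8a of cytotoxic T cells was 0.854 to 1.53 and 0.760 to 1.72 CPM. The defining markers Cd8b1, Klrb1c, Ncr1 and Mzb1 did not reach the low-count filter. Of 16 Kupffer cell markers (the resident macrophages of the liver), 13 were lower, 5 at an unadjusted p under 0.05, and the sums of 812 to 1174 CPM in control and of 616, 1057 and 770 CPM in 4MU mice overlapped. Clec4f, a receptor restricted to these cells, was 136 to 208 CPM in control and 77.3, 158 and 109 CPM in 4MU mice. Of 11 MHC class II genes 10 were lower, with sums of 218 to 390 CPM in control and 82.0, 301 and 151 CPM in 4MU mice. Of 23 monocyte, macrophage and neutrophil markers 19 were lower, with sums of 162 to 192 CPM and of 86.3, 170 and 167 CPM. In each of these lists 4MU mouse 1 was the lowest of the 7, and without it the median log2 fold changes were -0.48 for lymphocytes, -0.28 for Kupffer cells, -0.33 for MHC class II genes and -0.18 for the myeloid markers. The interferon-stimulated list had 28 of 43 genes without overlap and a median of -0.71 when that mouse was left out. Of all tested genes, 8.67% then lay below all controls. The part of immune cell content in the interferon and mitotic results was not tested.

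All 7 tested erythroid genes, which report red blood cells and their precursors in the sample, were lower (median -1.06). In 4 (57.1%) the mice did not overlap, and 4.28% of all tested genes lay below all controls. Hbb-bs, an adult beta-globin, was 207, 172, 125 and 124 CPM in control and 103, 69.2 and 45.02 CPM in 4MU mice, with an edgeR adjusted p of 0.765. Alas2, the erythroid enzyme of heme synthesis, was 10.8 to 18.3 and 5.42 to 10.9 CPM. Of 18 sinusoidal endothelium markers 16 were higher, 1 at an unadjusted p under 0.05, with a median of 0.27. The median was 0.073 without control mouse 2, with 6 markers lower, and 0.11 without 4MU mouse 2, with 7 lower. Of 23 stellate cell and fibroblast markers 15 were higher and of 14 ductal markers 9 lower, with medians of 0.15 and -0.14, which turned to -0.079 without 4MU mouse 2 and to 0.022 without control mouse 2.

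The genes of hyaluronan, the polymer 4MU is meant to lower, had values near 0 or were too low to test. Of the synthases, Has2 had 0 counts in all 7 livers, which allows at most 0.117 to 0.177 CPM in a library. Has1 had 3, 1, 3 and 0 counts in control and 1, 2 and 17 counts in 4MU mice, the 17 in 4MU mouse 3, and Has3 had 5, 2, 2 and 5 counts in control and 10, 6 and 3 in 4MU mice. Cemip, a hyaluronan-degrading protein, had 1 count over the 7 libraries. None of these 4 passed the low-count filter, so a change in them was not detectable at this depth. Of the 18 hyaluronan genes tested, 9 were lower and 9 higher, with a median log2 fold change of -0.03. Hyal1 and Hyal2, the hyaluronidases that act in lysosomes and at the cell surface, had log2 fold changes of 0.19 (95% interval -0.18 to 0.56) and 0.04 (-0.30 to 0.39). The receptor Cd44 had -0.23 (-0.77 to 0.32) and Stab2, the uptake receptor of sinusoidal endothelium, 0.01 (-0.36 to 0.38). Against the nanoparticle mice, edgeR called 2 of the 18 lower and 0 higher. For Cd44 that log2 fold change was -1.09 (edgeR adjusted p = 0.0208). The nanoparticle mice had 12.2 to 19.9 CPM of Cd44 and the control mice 7.67 to 9.85 CPM. The member with the lowest p was Hmmr, a hyaluronan-binding protein of the mitotic spindle, at 0.214 to 0.865 CPM in control and 0.0512 to 0.117 CPM in 4MU mice (log2 fold change -2.36, edgeR adjusted p = 0.569).

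Genes that make the UDP-sugars were mixed. Of 17 tested, 11 were lower and 6 higher. In 4 (23.5%) the 4MU mice lay below all controls and in 0 above, against 4.28% and 3.47% of all tested genes. With libraries scaled by total counts, 1 lay below and 1 above (5.88% each), against 2.27% and 7.89% of all tested genes. Ugp2, which makes UDP-glucose, was 388, 325, 437 and 555 CPM in control and 524, 409 and 771 CPM in 4MU mice (0.41, 95% interval -0.03 to 0.85). Ugdh, which oxidises UDP-glucose to UDP-glucuronic acid, was 90.6, 90.0, 137 and 127 CPM in control and 92.7, 79.5 and 329 CPM in 4MU mice. Its log2 fold change was 0.59 with all mice and -0.37 without 4MU mouse 3. Uap1, which makes UDP-N-acetylglucosamine, was 21.4 to 31.8 CPM in control and 31.2 to 35.5 CPM in 4MU mice. Hk2, a hexokinase that is low in healthy hepatocytes, was 1.83 to 2.54 and 0.717 to 1.37 CPM (-1.05, standard error 0.339, edgeR adjusted p = 0.401).

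Of 16 UGTs tested, 12 were higher, 3 at an unadjusted p under 0.05 and 1 by DESeq2. At that unadjusted p, 3.15% of all tested genes were higher. Ugt2b35 was 140, 144, 133 and 142 CPM in control and 199, 152 and 754 CPM in 4MU mice (log2 fold change 1.40, standard error 0.323, edgeR adjusted p = 0.180, DESeq2 adjusted p = 0.0145). All 3 4MU mice were above the controls, and 4MU mouse 3 set the size, since the log2 fold change without it was 0.33. Ugt2b5 was 401 to 471 CPM in control and 523, 522 and 1089 CPM in 4MU mice (0.68, and 0.23 without 4MU mouse 3). Ugt1a1, which conjugates bilirubin, was 63.6 to 125 and 77.9 to 120 CPM (0.07, 95% interval -0.70 to 0.85). The Ugt1a genes share their last exons and the Ugt2b genes much of their sequence, so the assignment of reads among them is uncertain. The 16 genes summed to 2507 to 3117 CPM in control and to 3104, 2889 and 4496 CPM in 4MU mice. Of 16 sulfotransferase genes, the other route of conjugation, 9 were lower and 7 higher.

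Nrf2 is the transcription factor that answers oxidants and electrophiles. Of its 33 targets tested 25 were higher, 7 at an unadjusted p under 0.05 (against 3.15% of all tested genes) and 0 by edgeR or DESeq2. The Nrf2 targets summed to 8227 to 9819 CPM in control and 8186, 8384 and 13710 CPM in 4MU mice. 4MU mouse 3 thus lay above all others, and the other 4MU mice lay at the level of the controls. Gclc, the rate-limiting subunit of glutathione synthesis, was 241 to 297 CPM in control and 333, 348 and 851 CPM in 4MU mice (log2 fold change 0.95, and 0.36 without 4MU mouse 3). Srxn1, which repairs peroxiredoxins, was 41.1 to 45.1 CPM in control and 41.3, 40.3 and 172 CPM in 4MU mice (0.98, and -0.071 without that mouse). Nqo1, a quinone reductase, had a log2 fold change of 0.20 with all mice and -0.24 without 4MU mouse 3. Without that mouse the median of the list was -0.11, against 0.14 with it.

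The genes that report other drug receptors passed no test after adjustment, and their list moved with 4MU mouse 3. Of 35 targets of PXR and CAR, 18 were lower and 17 higher (median -0.024), and 0 lay below all controls. Without 4MU mouse 3, 22 were lower, the median was -0.23 and 9 (25.7%) lay below all controls, as did 7.91% of all tested genes. With all mice, the log2 fold change of Cyp3a11 was -0.08 (95% interval -0.64 to 0.48) and that of Cyp2b10 -0.16 (-1.21 to 0.90). Of 7 targets of the aryl hydrocarbon receptor 6 were higher, with Cyp1a1 at 0.16. Ahr itself was 30.8 to 41.1 CPM in control and 24.2 to 29.9 CPM in 4MU mice (-0.48, 95% interval -0.83 to -0.13, edgeR adjusted p = 0.466).

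Cyp7a1, the rate-limiting enzyme of bile acid synthesis from cholesterol, was the liver metabolic gene with the largest difference among those always named. It was 387, 106, 86.6 and 267 CPM in control and 58.9, 48.2 and 45.1 CPM in 4MU mice, so the 4MU mice lay close together below a wide control range. The log2 fold change was -2.06 (standard error 0.514, 95% interval -3.12 to -1.004, edgeR adjusted p = 0.230, DESeq2 adjusted p = 0.0264), and it stayed between -2.32 and -1.60 over the alternatives, with adjusted p from 3.6e-09 without the low-count filter to 0.558 without 4MU mouse 3. Cyp8b1, which decides the share of cholic acid, was 93.2 to 285 CPM in control and 35.5 to 156 CPM in 4MU mice (-0.81). Cyp39a1, an oxysterol hydroxylase, was 13.7 to 27.3 CPM and 49.2, 21.2 and 46.9 CPM (1.04). Of 21 bile acid synthesis genes 9 were lower and 12 higher, and of 19 transporters 8 were lower and 11 higher. The bile acid receptor Nr1h4 and its target Nr0b2 had log2 fold changes of -0.18 and 0.14.

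**Figure D4:**
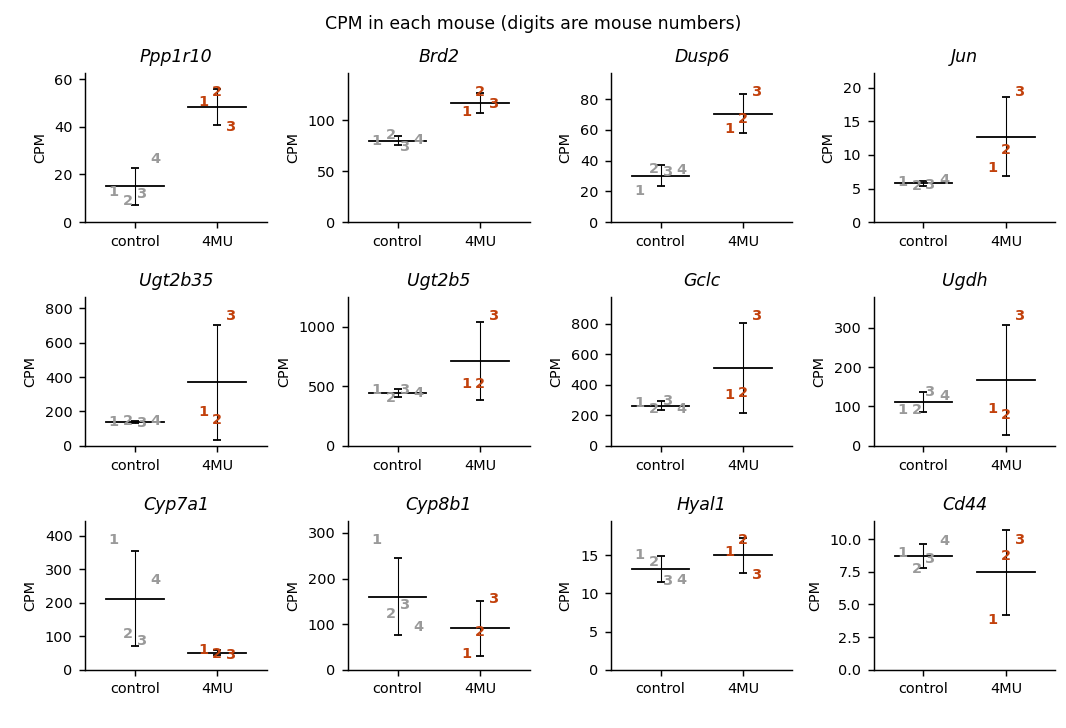
CPM of 12 genes in each control and 4MU mouse, with digits for mouse numbers, a line at the mean and bars of 1 SD. 4MU mouse 3 stands above all others in Ugt2b35 (754 CPM), Gclc (851 CPM) and Ugdh (329 CPM), while the 4MU mice lie close together in Cyp7a1.

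Cholesterol synthesis genes, which the transcription factor SREBP2 drives together, were lower in 25 of 26 members, 2 at an unadjusted p under 0.05 and 0 by either tool after adjustment (median -0.60). The list summed to 3811 to 5907 CPM in control and to 3667, 3715 and 1959 CPM in 4MU mice. In 6 genes (23.1%) the 4MU mice lay below all controls, as they did in 4.28% of all tested genes. Sqle, which epoxidises squalene, was 83.8, 102, 132 and 88.6 CPM in control and 53.9, 58.0 and 12.5 CPM in 4MU mice (-1.29, edgeR adjusted p = 0.815). 4MU mouse 3 was the lowest, and without it the median of the list was -0.34. Of 24 genes of fatty acid synthesis 18 were lower, with wide ranges among controls, such as Scd1, the stearoyl-CoA desaturase, at 1263 to 12578 CPM. The median of that list was -0.25 with all mice, and without control mouse 3 it was 0.034, with 11 of 24 lower. Clock output differed as much between mice of one group, with Dbp, a circadian output gene, at 9.52 to 99.1 CPM in control and 1.17 to 76.5 CPM in 4MU mice.

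The other lists held no gene called by edgeR or DESeq2. Of 41 genes of fatty acid oxidation 26 were lower, of 25 of glucose metabolism 11, of 42 of amino acid breakdown 23, of 39 of the growth hormone axis 22, of 23 clock genes 13 and of 32 acute-phase proteins 21, with medians between -0.10 and 0.04. The clock and acute-phase lists moved with single mice. Without 4MU mouse 1, 10 clock genes were lower and 5 higher at an unadjusted p under 0.05, in place of 1 and 0, with 7 below and 7 above all controls and a median of -0.63. Of all 14114 tested genes, 477 were then lower and 436 higher at that p, with 8.67% below and 8.7% above all controls. Without control mouse 4 the median of the clock genes was 0.30. Of the acute-phase proteins 11 of 32 were lower without control mouse 2 (median 0.097). Of 23 pericentral hepatocyte genes 19 were higher and of 24 periportal genes 17 lower (medians 0.09 and -0.08). Of 35 collagen and matrix genes 17 were lower and 18 higher, with 0 at an unadjusted p under 0.05, and Col1a1, the main fibrillar collagen, was 2.60 to 6.32 CPM in control and 2.25 to 10.7 CPM in 4MU mice. Acta2, the actin of activated stellate cells, was 0.826 to 1.92 and 0.256 to 3.34 CPM, and Fgf21, a fasting and stress hormone, 0.818 to 2.82 and 1.18 to 7.50 CPM. Of 27 semaphorin and TGF-beta genes 21 were higher, of 19 heat shock genes 17, of 19 iron genes 13, of 26 chaperones of the endoplasmic reticulum 13, of 25 ATF4 targets 11, of 20 p53 targets 7, and of 7 adipose and mesothelial genes 6 (median 0.78, and 0.28 without 4MU mouse 2). Of 76 cytosolic ribosomal protein genes 58 were lower, of 79 nuclear genes of oxidative phosphorylation 61, and of 13 mitochondrially encoded genes all 13 (medians -0.08, -0.08 and -0.36). Of 33 genes that the study names for fibrotic mice given 4MU, 17 were lower and 16 higher here, and Cyp7a1 alone was called by DESeq2. That list was chosen on libraries of the same series.

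The nanoparticle mice give a second, separate set of uninjured livers, and both comparisons share the 4MU mice. The nanoparticle mice differ from the 4MU mice in the nanoparticles, the siRNA and the route (tail vein against daily gavage) as well as in 4MU. By edgeR, 71 genes (0.503%) were higher and 205 (1.45%) lower in the 3 4MU mice than in the 6 nanoparticle mice. All 4MU mice lay above all 6 in 381 genes (2.7%) and below all 6 in 593 (4.2%). The calls numbered 75 without 4MU mouse 1, 87 without 4MU mouse 3, 158 without siHAS2-LNP mouse 2 and 170 without siLuc-LNP mouse 3, in place of 276. Of the 43 interferon-stimulated genes, 8 fell and 17 lay below all 6, with a median log2 fold change of -0.64. Ifit3 fell by 1.23 on the log2 scale (edgeR adjusted p = 0.0199), Mx1 fell by 1.27 (edgeR adjusted p = 0.0303) and Tap1 fell by 0.74 (edgeR adjusted p = 0.0180). Of the 47 mitotic genes, 13 fell and 24 lay below all 6, with a median of -1.26. The nanoparticle mice had sums of 213 to 268 CPM for this list, above those of the controls. Kmt2d and Spen rose (0.77 and 0.80, edgeR adjusted p = 0.00345 and 0.0181), as did Ugt2b35 (1.33, edgeR adjusted p = 0.0152) and Ppp1r10 (0.94, edgeR adjusted p = 0.0491). In Ugt2b35 and Ppp1r10 the mice overlapped. In Ppp1r10 the siLuc-LNP mice (13.05 to 15.9 CPM) lay below the 4MU mice (40.0 to 54.6 CPM), and the siHAS2-LNP mice (35.7 to 52.1 CPM) overlapped them. Other genes with a large difference from control did not pass this comparison. The log2 fold change was 0.23 for Brd2 (edgeR adjusted p = 0.325), 0.77 for Dusp6 (0.0885), -0.97 for Cyp7a1 (0.377) and 0.13 for Prtn3 (0.976), and the mice overlapped in Brd2, Cyp7a1 and Prtn3. Against control, Prtn3, a neutrophil protease, had -2.89, and -1.29 without control mouse 2. The macrophage genes Cd163 and Cx3cr1, chosen here after their values were seen, differed between the nanoparticle mice and both other groups. They do not stand for all macrophage markers. The 16 Kupffer cell markers summed to 864 to 1241 CPM in nanoparticle mice, against 812 to 1174 CPM in control mice. In 2 of the 16 the 4MU mice lay above all 6 nanoparticle mice and in 2 below, with a median log2 fold change of -0.51. Cd163, a scavenger receptor of resident macrophages, was 7.99 to 12.2 CPM in 4MU, 7.73 to 19.9 CPM in control and 0.439 to 1.70 CPM in nanoparticle mice. Cx3cr1, the fractalkine receptor of monocyte-derived macrophages, was 0.461 to 1.37, 0.695 to 2.82 and 7.60 to 18.7 CPM in the same order.

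Whether 4MU acted alike in uninjured and injured liver was tested as the interaction, the log2 fold change of CCl4 + 4MU against CCl4 minus that of 4MU against control. By edgeR it was above 0 in 384 genes (2.72%) and below 0 in 416 (2.95%). The interaction rests on 2 CCl4 mice, and without CCl4 mouse 2 it was called in 20 genes instead of 800. It was called in 351 genes without control mouse 1, 441 without control mouse 2, 237 without 4MU mouse 2, 271 without 4MU mouse 3, and 244, 520 and 246 without CCl4 + 4MU mouse 1, 2 and 4. With libraries scaled by total counts it was called above 0 in 179 and below 0 in 2003 genes. Cyp7a1 had the largest value, since 4MU mice were lower than controls without CCl4 (-2.06) and CCl4 + 4MU mice, at 130 to 218 CPM, higher than CCl4 mice, at 11.3 and 35.6 CPM (2.79), which gave an interaction of 4.86 (edgeR adjusted p = 0.0109). Igtp and Zbp1 were the interferon-stimulated genes with an interaction (1.28 and 1.92, edgeR adjusted p = 0.0494 and 0.0392), and the median of the list was -0.12 with CCl4, with 29 of 43 genes lower. All 47 mitotic genes were lower in CCl4 + 4MU than in CCl4 mice (median -2.03), and 9 had an interaction below 0. The low-count filter took the mean over all 27 libraries, so mitotic genes could pass it through the CCl4 mice. Mki67 was 102 and 209 CPM in the 2 CCl4 mice. Bub1 passed the filter with at most 11 counts in each of the 7 uninjured livers. The lower values against the CCl4 mice are therefore not separate support. Of the 11 MHC class II genes 7 had an interaction above 0, among them H2-Ab1, which presents antigen to helper T cells (2.79, edgeR adjusted p = 0.0167). Dusp6 (-2.03) and Ppp1r10 (-1.68) had interactions below 0, with edgeR adjusted p of 0.0115 and 0.0283. Ahr had one above 0 (1.30, edgeR adjusted p = 0.0115).

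**Figure D5:**
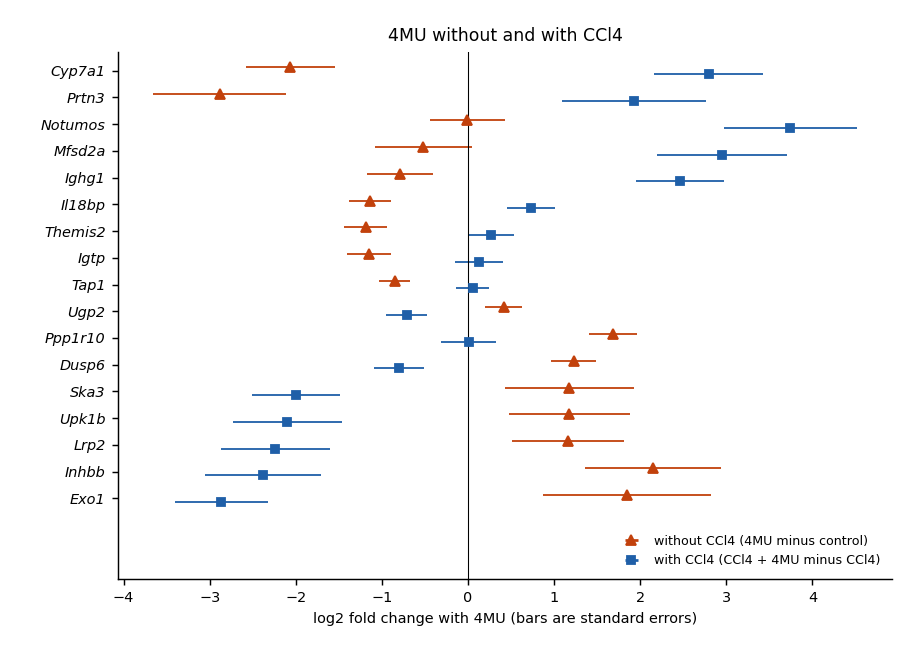
Log2 fold change with 4MU of the named genes whose interaction passed edgeR's test, without CCl4 (triangles) and with CCl4 (squares), with bars of 1 standard error. Cyp7a1 lies at -2.06 without CCl4 and at 2.79 with it.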

How the data were processed

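Paired-end, poly(A)-selected RNA-seq libraries of whole liver were made with a directional kit and sequenced by the authors on a NextSeq 500. Per the study's methods, the authors trimmed reads with Trimmomatic 0.39, aligned them to GRCm39 with Ensembl 105 annotation by HISAT2 and counted read pairs per gene with featureCounts in R 3.4.2, without multi-mapping reads. The strand setting and the other versions are not given in the sources used here. The authors deposited raw counts, whole numbers that were neither filtered nor normalised.

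Here, genes averaging 10 or more counts over 27 libraries were tested with edgeR 4.0.16 (R 4.3.3), with TMM, 1 fit of 8 groups without covariates, the quasi-likelihood test and Benjamini-Hochberg adjustment at 0.05. CPM uses TMM-scaled totals. DESeq2 1.42.0, limma 3.58.1 voom and other settings were alternatives. Scripts were tested on simulated data. Symbols and positions came from GENCODE mouse release 39, which matched 54749 of 55414 genes, and promoters from RefSeq. Nothing in the labels or methods says more of the replicates than that they are separate mice. Pairs of libraries differed by more than sampling noise (chi-square of 41.2 to 93.3 per degree of freedom), so each counted as 1 replicate.

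Genes were named by a rule: the 12 largest changes per direction past the threshold without overlap, or the 5 lowest p where fewer than 5 passed; in each list, members past the threshold; a fixed set of hyaluronan, drug, bile acid and matrix genes; and the 5 largest interactions per direction. Other examples were chosen after their values were seen. The comparison, the lists and the rule were chosen with earlier results of these data known. Reads of families with shared sequence (Ugt1a, Ugt2b, Cyp3a, Cyp2b, Ifit, Gbp and globin genes) are uncertain in their assignment. Reads in overlaps of genes are uncertain too. Besides Ppp1r10 and Tap1, examples are Cdc20 with Elovl1, Il18bp with Numa1 and Brd2 with H2-DMa, on opposite strands. Igtp and Irgm2 overlap on the same strand. The DESeq2 fits without single mice or with 7 mice, and the counts of list members without overlap with mice left out or other scalings, were added after seeing the data. Some genes of the lists are not reported here.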

Additional observations from a re-analysis of the deposited data

Results flagged for a closer look

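Among the genes named, the effect of 4MU with CCl4 differed from that without CCl4 by edgeR's interaction test in the following cases, on the log2 scale. The difference was -1.68 for Ppp1r10, -2.03 for Dusp6, 0.90 for Tap1, 1.46 for Themis2, 1.87 for Il18bp, 1.28 for Igtp, -1.12 for Ugp2 and 4.86 for Cyp7a1. The largest differences above 0 after Cyp7a1 were 4.81 for Prtn3, a neutrophil protease, 3.75 for the long noncoding RNA Notumos, 3.47 for Mfsd2a, a lipid transporter, and 3.25 for Ighg1, an immunoglobulin heavy chain. The largest below 0 were -4.71 for Exo1, a DNA exonuclease, -4.53 for Inhbb, an activin subunit, -3.40 for Lrp2, an endocytic receptor, -3.27 for Upk1b, a uroplakin, and -3.18 for Ska3, a kinetochore protein. All of them rest on 2 CCl4 mice, and Exo1, Inhbb, Lrp2, Upk1b and Ska3 were at most 2.13 CPM in each of the 7 uninjured livers.

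Single control mice lay far from the other 3, by Dixon's test, which chance passes in about 1 of 20 groups. Control mouse 1 was low in Dusp6 (20.1 CPM) and high in Themis2 (10.6 CPM) and Notumos (3.10 CPM). Control mouse 2 was high in Il18bp (35.7 CPM), Tgtp1 (52.4 CPM) and Prtn3 (58.1 CPM), and had 0 counts of Inhbb. Control mouse 4 was high in Mfsd2a (76.2 CPM).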

How the results depend on the processing

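The number of genes called for 4MU against control was 1 by edgeR, 51 by DESeq2, 57 by DESeq2 on the 7 mice alone, 2 by limma-voom, 136 without the low-count filter (131 of them with a mean of at least 10 counts), 0 with total counts, with the compared groups alone or with the groups without CCl4, 966 at an unadjusted p, and 0 to 1 with a mouse left out. The DESeq2 calls ranged from 10 to 85 with a mouse left out. Against the nanoparticle groups the number was 276 by edgeR, 527 by DESeq2, 540 by limma-voom, 144 with total counts, 631 without the filter, 123 with the compared groups alone, 1831 at an unadjusted p, 495 at an adjusted p under 0.1, and 75 to 308 with a mouse left out. For the interaction it was 800 by edgeR, 1481 by DESeq2, 2182 with total counts, 1386 without the filter, 1308 with the compared groups alone, 3603 at an unadjusted p, 1923 at an adjusted p under 0.1, and 20 to 1195 with a mouse left out. Genes without overlap numbered 26 to 33 of the interferon list and 13 to 22 of the mitotic list with a mouse left out. The share of all tested genes below the controls was then 6.04% to 8.67%. The cause of these shifts was not tested. Same-numbered control and 4MU mice correlated at 0.173, -0.0583 and 0.128 in their deviations, so the number does not pair them, and with the replicate number as a block the calls were 1, 230 and 561.

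Signs of the log2 fold change of 4MU against control turned in genes that passed no test of that comparison. By limma-voom, Cyp1a1 was -0.38, Nqo1 -0.054 and Acta2 -0.42, with the block Cyp1a1 was -0.14 and Mfsd2a 0.21, and Notumos was 0.083 with total counts, 0.000446 with the compared groups and 0.000359 with the groups without CCl4. With a mouse left out, log2 fold changes ran from -1.21 to 0.56 for Acta2, -0.48 to 0.084 for Cd44, -0.64 to 0.63 for Col1a1, -0.61 to 0.55 for Cyp1a1, -0.44 to 0.22 for Cyp2b10, -0.67 to 0.21 for Cyp3a11, -0.10 to 1.43 for Fgf21, -0.017 to 0.16 for Hyal2, -0.076 to 1.59 for Lrp2, -0.94 to 0.73 for Mfsd2a, -0.19 to 0.10 for Notumos, -0.24 to 0.44 for Nqo1, -0.37 to 0.92 for Ugdh and -0.12 to 0.26 for Ugt1a1. At 3 and 4 mice a group, depth limits genes of a few counts, such as the hyaluronan synthases, and the spread between mice limits the rest.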
